A study of Mus musculus with 6 samples.

Results

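The cytosolic ribosomal protein genes of mouse gonads were followed across 6 Affymetrix arrays. Members were all genes whose platform symbol is that of a protein of the small (Rps) or large (Rpl) subunit of the cytosolic ribosome, with the stalk and base genes Rplp0, Rplp2 and Rpsa and the like-named paralogs, taken from probe sets with a single gene symbol. This gave 49 of 18193 genes, carried by 105 of 45101 probe sets, with 23 small subunit and 26 large subunit genes. Of these, 43 bear the name of a standard ribosomal protein and 6 are paralogs (Rpl3l, Rpl7l1, Rpl22l1, Rpl39l, Rps4l and Rps27l). A further 28 ribosomal protein symbols, among them Rpl3, Rpl5, Rpl10 and Rplp1, stand only on probe sets that name several genes and were left out by the rule. Kinases of the Rps6k family were left out as well.

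The study compared ovary and testis of C57BL/6 mice, an inbred laboratory strain, in a search for genes of meiotic chromosome segregation. Each sex was sampled in the fetus (15.5 days postcoitum), on day 1 after birth and at 10 weeks of age, as dissected gonads, with 1 array per group and 6 in all. A difference between groups thus compares single arrays, without replicates, and no test was made. The sources used here do not give the number of animals behind a sample. Because whole organs were used, fewer cells of a type and less RNA per cell cannot be told apart.

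Each cytosolic ribosome has a small subunit, which decodes the mRNA, and a large subunit, which joins amino acids. Their proteins are needed in near equal numbers, so the genes are active in all growing cells. Their mRNAs begin with a run of pyrimidines, through which the mTOR kinase and Larp1 regulate their translation. Male germ cells are known to use some autosomal paralogs, such as Rpl39l and Rpl10l, whose parent genes lie on the X chromosome, which is silenced in spermatocytes. Rpl10l was looked for and is not analysed here.

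By the probe set used for each, most ribosomal protein genes were bright and nearly constant on 5 of the 6 arrays. Adult testis stood apart with lower signals for almost all of them. Over the standard members above background, the median scaled signal was 10846 in fetal ovary, 12450 in neonatal ovary and 10502 in adult ovary. In testis it was 10881 in the fetus, 12374 in the newborn and 5433 in the adult. Scaled signals are deposited signals multiplied by 1 factor per array, and values under 75.3, the median of all signals, were raised to that floor before ratios were taken.

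Of all signal summed over the 18193 genes of an array, the members held between 3.31% (adult ovary) and 3.84% (neonatal ovary) on those 5 arrays and 1.89% in adult testis. This share does not depend on the factor of an array. In the top 1% of signals were 35 or 36 of the 49 members on each of the 5 arrays and 17 in adult testis. Of genes with a signal over 10000, members were 27 of 40 in fetal ovary, 33 of 67 in neonatal ovary and 2 of 13 in adult testis. Whether ratios are compressed at such signals was not tested. Adult testis was the lowest of the 6 arrays for 42 of the 47 members that were above the floor anywhere. For the other 5 the lowest array was fetal ovary or adult ovary. The highest array was neonatal ovary or neonatal testis for 39 of the 47. Unlike the share, these counts of lowest and highest arrays depend on the array factors. The same counts were not taken over all genes, so they cannot be called particular to the members. With signals as deposited the members' median log2 ratio of neonatal over fetal ovary was -0.28, and 0.19 as scaled here. Rpl3l, a large subunit paralog of striated muscle, and the single-symbol probe set of Rps16 were at the floor on all arrays.

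**Figure D1:**
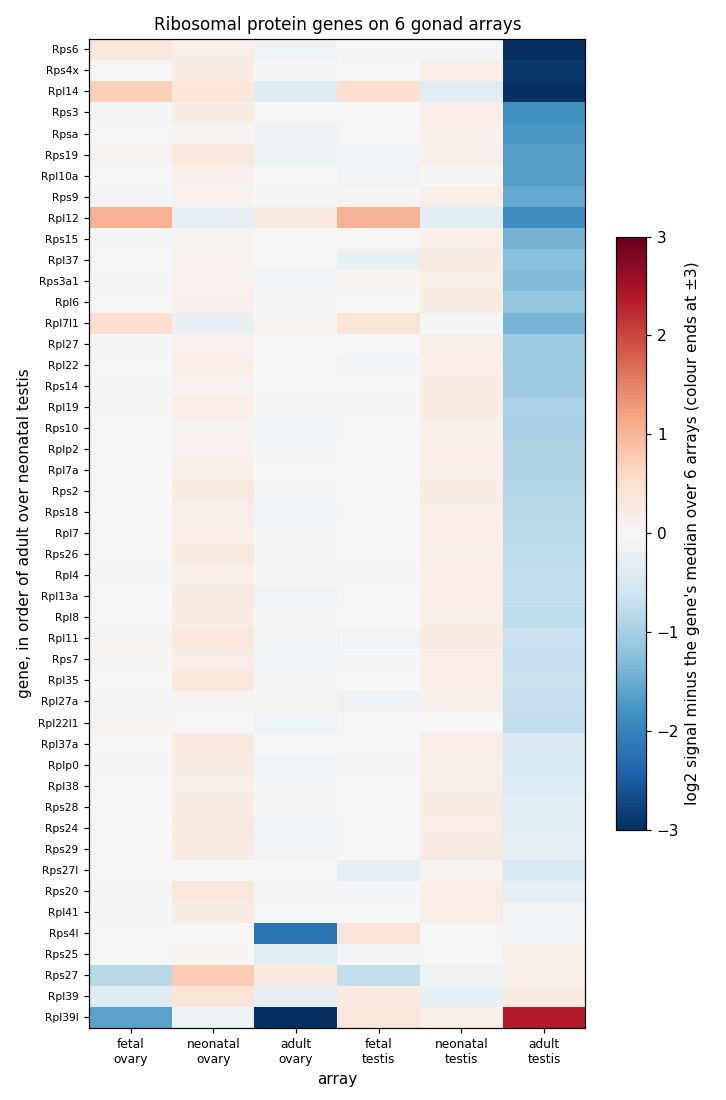
Scaled log2 signal of 47 ribosomal protein genes (rows, ordered by the ratio of adult to neonatal testis) on the 6 arrays (columns), each row minus its median over the arrays. Adult testis is the lowest column for 42 genes, while Rpl39l at the bottom is highest there.

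In adult testis against neonatal testis, 24 of 47 members were 2-fold or more lower and 1, Rpl39l, was 2-fold or more higher. Among all 14198 genes above the floor on at least 1 of these arrays, 32.5% were 2-fold or more lower and 22.6% higher. With signals as deposited 17 members were lower, where 27.6% of all genes were, and with quantile normalization 18, where 30% were. The median log2 ratio was -1.01 over the members, a 2.01-fold lower signal, and -0.30 over all genes. Counting only genes above the floor on both arrays, these medians were -0.98 and -0.50. The quartiles of the members were -1.43 and -0.60, and 43 of the 47 had a ratio below 0. Of all 14198 genes 8243 had a ratio below 0. The direction against 0 depends on the scaling. With arrays scaled to the hybridization controls, bacterial and phage transcripts added at hybridization, the members' median was 0.37 and that of all genes 0.86. This scaling left 3 members 2-fold or more lower, Rps6, Rps4x and Rpl14, where 9.7% of all genes were. It left 6 higher, Rpl39l, Rpl39, Rps27, Rps25, Rps4l and Rpl41, where 46.1% of all genes were. Under this scaling and the other settings of scaling or floor, or with the mean of a gene's probe sets, the members' median minus that of all genes lay between -0.82 and -0.49. It was -0.95 with only probe sets designed for 1 transcript (suffix _at), which left 26 members, 19 of them above the floor. The difference is smaller against genes above the floor on both arrays, whose median was 0.68 with the hybridization controls. The spread of a log2 ratio between 2 probe sets of 1 member, a technical measure that covers no variation between animals, had a robust SD of 0.19.

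Small subunit genes took most places at the low end. Rps6, whose protein is the substrate of S6 kinases, had 2100 in fetal, 1863 in neonatal and 1504 in adult ovary. Its testis signals were 1696 in the fetus, 1618 in the newborn and 143 in the adult. Only adult testis was low, at an 11.3-fold lower signal than in neonatal testis. This probe set is dim among those of the members. A second, still dimmer one had 94.9 in neonatal testis and a value under the floor in adult testis, a log2 ratio of -0.33 that is limited by the floor.

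Rps4x, an X-linked gene for a protein of the small subunit, had 10855 in fetal, 12570 in neonatal and 10393 in adult ovary. Its testis signals were 10769, 12330 and 1452 by age. It was 8.49-fold lower in adult than in neonatal testis, where its level had been within the range of the ovaries. Scaled to the hybridization controls it was 3.28-fold lower. Rps3, which sits at the mRNA entry of the small subunit, had signals between 10938 and 13100 on the 5 other arrays and of 3129 in adult testis, 4.15-fold lower than in neonatal testis and 1.60-fold lower with the hybridization controls.

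Rpsa, the laminin receptor and a small subunit protein, followed with 3644 in adult against 13695 in neonatal testis, 3.76-fold lower. Rps19, a gene mutated in Diamond-Blackfan anaemia, had 3404 against 11861, 3.49-fold lower. Rps9, a protein needed for accurate decoding, had 3507 against 11164, 3.18-fold lower. In each of these genes adult testis was below all other arrays, which lay between 9561 and 13695. With the hybridization controls none of them passed 2-fold, at 1.45-fold, 1.35-fold and 1.23-fold lower.

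In the large subunit, Rpl14 had the lowest ratio, with 1135, 891 and 529 in the ovaries by age, 979 in fetal and 541 in neonatal testis, and a value under the floor in adult testis. It was at least 7.19-fold lower in adult than in neonatal testis. Rpl10a, a protein near the exit site for tRNA, had 3817 in adult and 12418 in neonatal testis, 3.25-fold lower (1.26-fold with the hybridization controls). Rpl37, a small zinc-binding protein, was 2.84-fold lower and Rpl6 2.61-fold lower. Rpl12, a protein at the base of the stalk, went by age from 753 to 302 to 102 in testis and from 771 to 314 to 444 in ovary. By the probe sets used, it differed from the bright members in being lower in both neonatal gonads as well. Unused dim probe sets of Rps9, Rps24 and Rpl41 were lower there too. Their log2 ratios of neonatal over fetal were -2.36, -1.80 and -2.81 in testis and -2.25, -1.47 and -2.71 in ovary, some limited by the floor. A dim one of Rpl37a was higher, at 0.91 and 0.93.

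Without the paralogs, 12 of 20 small subunit and 11 of 22 large subunit genes above the floor were 2-fold or more lower in adult testis. Their medians were -1.10 and -0.98. The difference between the subunits is smaller than the spread among the genes of either. A 4-fold limit left 4 genes lower, Rps6, Rps4x, Rpl14 and Rps3, where 13.2% of all genes passed it, and Rpl39l higher, where 13.7% did.

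By the probe set used, some bright members differed by less than 1 log2 unit, and Rpl41 least. Rpl41, the smallest ribosomal protein, had 10410, 12495 and 10599 in the ovaries by age and 10851, 12216 and 10012 in the testes. Adult testis was 1.22-fold below neonatal testis and 1.06-fold below adult ovary. A dim probe set of Rpl41 had 319 in adult ovary and another 165, and both were under the floor in adult testis. Their log2 ratios of adult ovary over adult testis were thus at least 2.08 and 1.13, while a further bright one had 0.16. Rps20 was 1.40-fold lower in adult than in neonatal testis, Rps29, a small zinc-binding protein, 1.45-fold, Rps24 1.45-fold and Rps28 1.49-fold. Rpl38, which is linked to the translation of Hox mRNAs in the embryo, had a log2 ratio of -0.59. Rplp0, the base of the stalk that binds translation factors, was 1.52-fold lower. Rplp2, a protein of the stalk itself, had 6792 against 14510, 2.14-fold lower, but 1.21-fold higher with the hybridization controls.

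Between Rpl41 and Rps4x the members of the top 1% thus ranged from -0.29 to -3.09 on the log2 scale. The ratios of probe sets of a single gene spanned 2.46 in Rpl13a and 2.17 in Rpl22. Across 41 standard members above the floor on all arrays, the log2 ratio correlated with the log2 signal on the fetal testis array, which is not used in the ratio, with Pearson's r = -0.30 and Spearman's rho = 0.0024. Among the 34 of them in the top 1% there, r was 0.10 and rho 0.18. These points share their arrays and are not independent. Of the single-symbol probe sets of lower signal, Rps25, Rps27 and Rpl39 were 1.15-fold, 1.26-fold and 1.42-fold higher in adult than in neonatal testis, short of 2-fold. Rps18, near the contact of the subunits, had 8628 against 17604, 2.04-fold lower but 1.27-fold higher with the hybridization controls, and Rps3a1, at the mRNA exit, 5498 against 15345, 2.79-fold lower. Rpl11, which binds Mdm2 when ribosome assembly is disturbed, had 5470 against 10318, 1.89-fold lower.

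**Figure D2:**
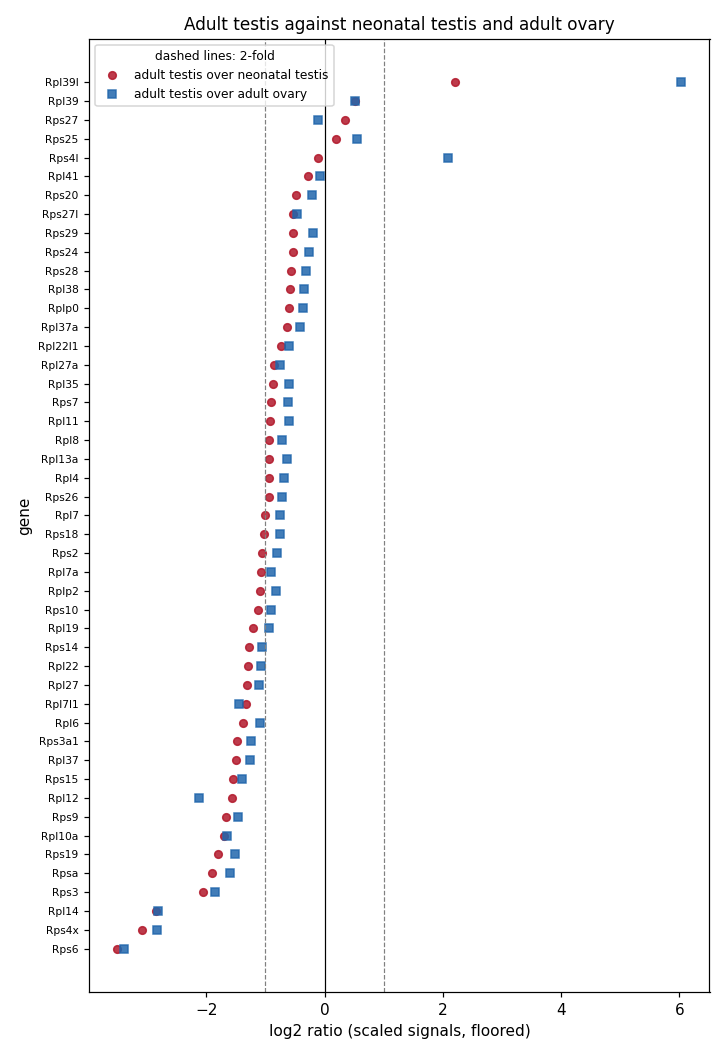
Log2 ratio of adult testis over neonatal testis (circles) and over adult ovary (squares) for 47 ribosomal protein genes, with dashed lines at 2-fold. With the scaling used most genes lie left of 0 in both, from Rps6 at -3.50 to Rpl41 at -0.29, and Rpl39l lies right of 2-fold in both.

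Adult ovary against adult testis gave a like order, and it shares the adult testis array. Of 47 members 17 were 2-fold or more higher in ovary and 2, Rpl39l and Rps4l, lower, against 34.2% and 22.4% of all genes. The share of members higher was thus close to that of all genes. The median log2 ratio was 0.75 over the members and 0.35 over all genes, and with the hybridization controls these were -0.28 and -0.57. Over all genes above the floor on both arrays the median was 0.54, and -0.35 with the hybridization controls. Rps6 was 10.5-fold, Rps4x 7.16-fold, Rpl14 at least 7.03-fold and Rpl12 4.33-fold higher in adult ovary. These 4 passed 4-fold, as did 15.1% of all genes, and Rpl39l and Rps4l passed it the other way, as did 13.8%. Rps3, Rpl10a and Rpsa were 3.60-fold, 3.12-fold and 3.03-fold higher.

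The paralogs did not move together. Rpl39l, the paralog of the exit tunnel protein Rpl39, had signals of 537 in fetal, 1471 in neonatal and 127 in adult ovary. In testis its signals were 2069 in the fetus, 1792 in the newborn and 8312 in the adult. Adult testis was the highest and adult ovary the lowest array. The signal was 4.64-fold higher in adult than in neonatal testis, and between 2.16 and 3.59 on the log2 scale under the 10 settings tried. Adult ovary lay 65.4-fold below adult testis and 11.6-fold below neonatal ovary. Rpl39l was also the only member 2-fold or more lower in fetal ovary than in fetal testis (3.85-fold), where 2.59% of all genes were, and it was 2.74-fold higher in neonatal than in fetal ovary. The gene lies on chromosome 16 and has 1 probe set, and its X-linked parent Rpl39 was measured by a dim one with signals between 188 and 318 on all arrays.

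Rps4l, an autosomal copy of Rps4x on chromosome 6 that the RefSeq gene table lists as a transcribed pseudogene, had 2588, 2661 and 577 in the ovaries by age and 3418, 2667 and 2460 in the testes. The high arrays were thus all 3 testes and the 2 younger ovaries, and adult ovary alone was low, 4.61-fold below neonatal ovary and 4.26-fold below adult testis. Between neonatal and adult testis its log2 ratio was -0.12, while that of Rps4x was -3.09. With the hybridization controls these were 1.26 and -1.71. Whether the Rps4l probe set also binds Rps4x mRNA was not tested.

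Rpl22l1, a paralog that can replace Rpl22, had 8538, 8108 and 7370 in the ovaries by age and 8229, 8115 and 4867 in the testes. Its ratio of adult to neonatal testis was -0.74 on the log2 scale, beside -1.29 for Rpl22. Rps27l, a paralog induced by p53, lay between 4886 and 6095 on 5 arrays and at 4218 in adult testis (log2 ratio -0.53), beside 0.34 for the dim probe set of Rps27. Rpl7l1, which acts in ribosome assembly, had 1226 in neonatal and 486 in adult testis (log2 ratio -1.34), beside -1.01 for Rpl7. With the hybridization controls the ratios of Rpl22l1, Rps27l and Rpl7l1 were 0.63, 0.84 and 0.04.

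**Figure D3:**
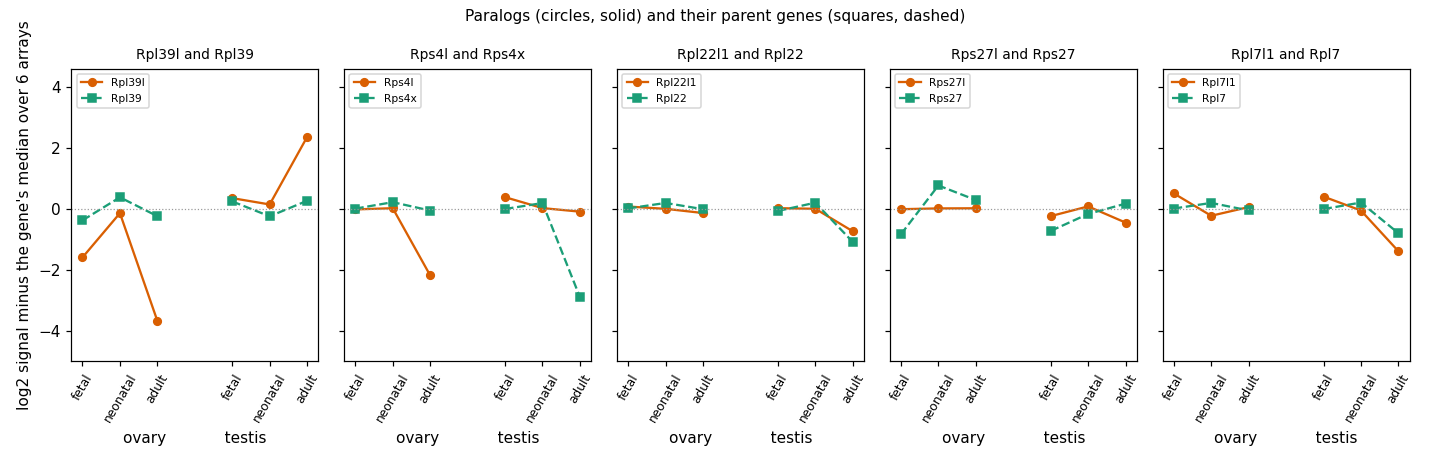
Log2 signal of 5 paralogs (circles) and their parent genes (squares) by age in ovary and testis, each gene minus its own median over the 6 arrays, so heights show changes and not levels. Rpl39l is high in adult testis and low in adult ovary, and Rps4x is low in adult testis where Rps4l is near its median.

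Probe sets of 1 gene were compared where at least 2 were above the floor on adult or neonatal testis, which held for 21 members. In 19 of them all probe sets had a log2 ratio below 0. The range between the probe sets of a gene had a median of 0.36 and was over 1 in 7 genes. After Rps3 and Rps6 the widest was Rpl13a, whose protein also regulates translation in inflammation, with ratios from -3.40 to -0.94. The probe set used had 14368 in neonatal and 7485 in adult testis, and the one with the lowest ratio 4686 and 444. Rpl22 ranged from -3.46 to -1.29 and Rps10, a protein of the head of the small subunit, from -2.87 to -1.13 over 5 probe sets. In Rps3 a probe set under the floor on all other arrays had a signal of 161 in adult testis, and it opposed the other 2, which had ratios of -2.05 and -3.24. Rpl37a ranged from -1.89 to -0.63 and Rpl7l1 from -1.34 to -0.15. The sizes of the ratios of these genes are therefore uncertain. By probe set type the median ratio was -0.73 over 24 sets designed for 1 transcript (suffix _at), -1.12 over 28 for several transcripts of a gene or family (_a_at) and -0.90 over 37 that can also bind unrelated transcripts (_x_at).

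**Figure D4:**
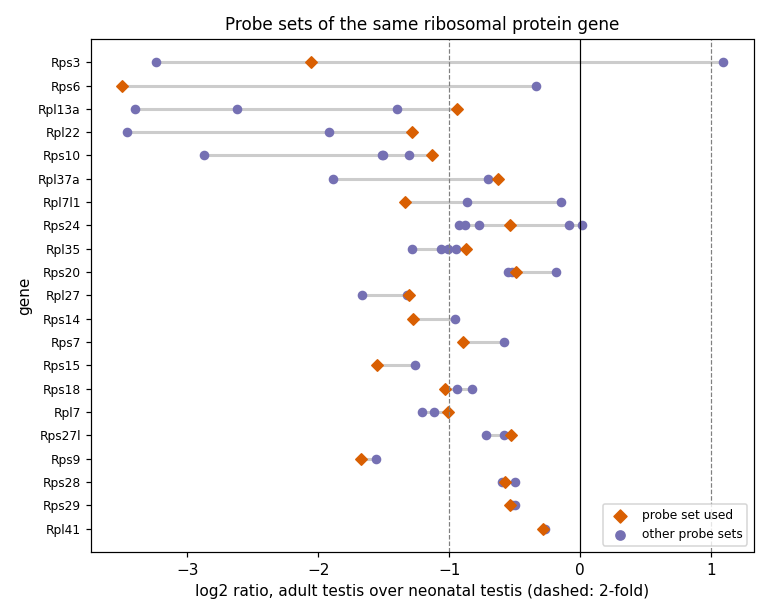
Log2 ratio of adult over neonatal testis for each probe set above the floor (diamonds: the probe set used for the gene; circles: the others) of 21 ribosomal protein genes, with dashed lines at 2-fold. Ranges are widest for Rps3, Rps6 and Rpl13a and under 0.5 for genes from Rpl35 down.

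Probe sets that name several genes, of which at least 1 is a ribosomal protein symbol, were looked at as a group. Of 110 such sets, 101 were above the floor on adult or neonatal testis, 49 were 2-fold or more lower in the adult and none was higher, with a median log2 ratio of -0.997. Among all genes on single-symbol probe sets 32.5% were lower and 22.6% higher.

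Outside adult testis 5 of 47 members spanned 2-fold or more over the other 5 arrays, Rpl39l (16.3-fold), Rps4l (5.92-fold), Rps27 (3.03-fold), Rpl12 (2.55-fold) and Rpl14 (2.15-fold). The same span was not taken over all genes, so no share stands beside this count. Between fetal ovary and fetal testis no member was 2-fold or more higher, where 1.68% of all genes were, 1 was lower (Rpl39l), and the median log2 ratio was 0.01. All 35 members in the top 1% lay between -0.10 and 0.16. Between neonatal ovary and neonatal testis no member was 2-fold higher or lower, where 8.04% and 5.27% of all genes were, and the bright members lay between -0.08 and 0.15. Rps19, for example, had 11366 in fetal ovary and 10176 in fetal testis, and 13198 and 11861 in the newborn.

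From fetus to newborn the bright members, by the probe set used, were slightly higher in both sexes. The medians over all members were 0.18 in testis and 0.19 in ovary on the log2 scale. With quantile normalization these medians were -0.0074 and -0.0088. That setting gives each rank the same value on every array. Members hold many of the brightest ranks, so it can hardly show a shift they share. With signals as deposited the medians were 0.020 and -0.28, so the direction and size against 0 depend on the scaling. Minus the median of all genes, they were 0.24 and 0.18 as scaled here and 0.23 and 0.17 as deposited. With only probe sets of suffix _at these differences were 0.017 and 0.061. In neonatal against fetal testis 1 member was 2-fold lower, Rpl12 (2.49-fold), and none higher, where 4.92% and 3.29% of all genes were. In neonatal against fetal ovary Rpl39l and Rps27 (3.03-fold) were higher and Rpl12 (2.45-fold) lower, where 5.01% and 3.44% of all genes were. From neonatal to adult ovary Rpl39l and Rps4l were lower and none was higher, where 9.42% and 8.05% of all genes were. The median there was -0.25 for the members and -0.04 for all genes, and it was 0.00 with quantile normalization and 0.16 with signals as deposited.

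Other genes of protein synthesis were set beside the members for adult against neonatal testis, with the scaling used above only. Fau, which encodes a small subunit protein fused to a ubiquitin-like domain, had 5767 against 9124, 1.58-fold lower, and was the only one of the ribosomal proteins outside the symbol pattern that was measured. Of 7 elongation factor genes, 2 were 2-fold lower and none higher (median -0.48). Eef1b2, a subunit of the exchange factor for eEF1A, was 3.13-fold and Eif5a2 2.48-fold lower, whereas Eef1a1 and Eef2, which carry tRNA and move the ribosome, were 1.39-fold and 1.40-fold lower. Of 15 other mRNAs known to begin with pyrimidines, a list that holds 3 of these elongation factors, 5 were lower and none higher (median -0.78). Gas5, an RNA that hosts small nucleolar RNAs, was 6.14-fold, Eif4b 4.75-fold lower, and Hnrnpa1 had 834 against 3331.

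Ribosome biogenesis had 18 of 30 genes lower and 2 higher (median -1.15). Nop56 and Dkc1, which belong to the particles that modify ribosomal RNA, were 11.2-fold and 8.41-fold lower, and nucleolin (Ncl) was 5.88-fold lower. Wdr12, of the complex that matures the large subunit, and Sbds, which releases a factor from it, were 4.89-fold and 2.90-fold higher. Of 11 genes of mTOR signalling, 5 were lower and 3 higher (median -0.98). The Eif4e inhibitor Eif4ebp1 was 9.46-fold lower, and Akt1 and Rheb were 8.11-fold and 3.18-fold lower. Mtor itself, the cap-binding Eif4e and Larp1 were 3.74-fold, 3.14-fold and 2.31-fold higher. Mitochondrial ribosomal proteins had 26 of 76 lower and 5 higher (median -0.76), with Mrpl23 6.62-fold lower and Mrpl1 4.03-fold higher. These counts stand beside 32.5% lower and 22.6% higher among all genes, and none was tested. The median of all genes was -0.30, and 0.86 with the hybridization controls. The lists were not examined under that scaling, so their direction against 0 holds for the scaling used only.

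**Figure D5:**
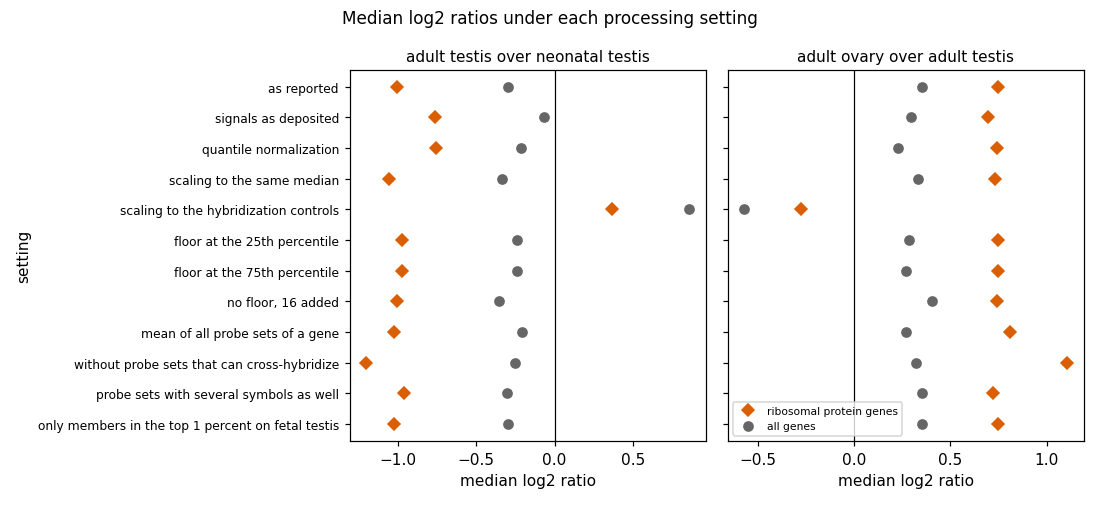
Median log2 ratio of the ribosomal protein genes (diamonds) and of all genes (circles) under each processing setting, for adult over neonatal testis (left) and adult ovary over adult testis (right). The members lie left of all genes in the left panel under every setting shown, and both change side of 0 with the hybridization controls. The setting named without probe sets that can cross-hybridize kept only probe sets of suffix _at.

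Promoter windows of the members were read from the RefSeq promoter table of GRCm38.p6 (250 bases before to 50 after an annotated start), which held 51 windows of 43 of the 49 genes. An unbroken stretch of at least 8 C or T bases that came within 5 bases of the start stood in 18 of the 51 windows (35.3%), against 9.38% of all 32851 windows. The letters CTTTCC, on either strand within 50 bases of the start, were in 29.4% of members' windows and 8.97% of all, and some of these lie inside the stretch. CGGAAG, on either strand anywhere in the 300 bases, was in 60.8% against 16.9%. Annotated starts can be off by some bases, and a window without the letters says nothing about the RNA. The genes below include the member with the lowest ratio in adult testis (Rps6) and its X-linked neighbour in rank (Rps4x). Also shown are a bright member that hardly differed by the probe set used (Rpl41) and the paralogs Rpl39l and Rpl22l1. Rpl35 is shown for its long stretch and middling ratio. Each line gives 40 bases before and 20 after the start, 5′ to 3′ on the gene's strand, with the C or T stretch counted above, of at least 8 bases and within 5 bases of the start, in capitals. Runs of C and T farther from the start are left in lower case.
Rps6 (chr4:86857348-86857407, minus strand): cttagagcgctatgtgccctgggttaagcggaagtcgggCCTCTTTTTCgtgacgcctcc
Rps4x (chrX:102189372-102189431, minus strand): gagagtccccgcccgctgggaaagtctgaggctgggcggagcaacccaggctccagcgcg
Rpl41 (chr10:128549149-128549208, minus strand): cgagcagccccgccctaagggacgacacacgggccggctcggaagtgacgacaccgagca
Rpl35 (chr2:39005112-39005171, minus strand): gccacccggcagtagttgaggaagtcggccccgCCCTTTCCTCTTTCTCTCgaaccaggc
Rpl39l (chr16:10170188-10170247, plus strand): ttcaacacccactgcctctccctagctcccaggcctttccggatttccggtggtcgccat
Rpl22l1 (chr3:28805468-28805527, plus strand): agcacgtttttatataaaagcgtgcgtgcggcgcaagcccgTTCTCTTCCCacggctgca

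The stretch of Rps6 crosses the start and that of Rpl35, 18 bases long, does so too, while Rpl39l has 7 such bases just before the start and so falls short of the limit. Rpl35 had 7182 in adult and 13170 in neonatal testis, 1.83-fold lower. Standard members with a stretch had a median log2 ratio of adult to neonatal testis of -0.99 (n = 16, from -3.50 to 0.34) and those without one of -1.31 (n = 21, from -3.09 to 0.51). The ranges overlap almost wholly.

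Germ cell markers followed the labels, and somatic markers did so in part. All 10 spermatid and all 10 late spermatocyte genes looked for were above the floor in adult testis, with a summed signal of 82707 for spermatids, where on the other arrays at most 1 spermatid gene was. The Sertoli list had 9 of 9 genes above the floor in fetal and neonatal testis and 7 in adult testis, where Amh and Sox9 were at the floor. It also had 8 in neonatal and in adult ovary and 5 in fetal ovary. All 11 oocyte genes were above the floor in adult ovary, 10 in neonatal and 3 in fetal ovary, and 6 in adult testis at a summed signal of 1450 against 12367 in adult ovary. The Leydig list, which shares steroidogenic genes with the ovary, summed to 28017 in adult ovary and 4937 in adult testis, where all 5 measured genes were above the floor. It summed to 22503 in fetal and 17611 in neonatal testis, and to 725 and 1918 in the ovaries of those ages. All 8 granulosa genes were above the floor in adult ovary and in fetal and neonatal testis, against 6 in fetal and 7 in neonatal ovary. They summed to 31374 in adult ovary, 6179 in neonatal ovary and 14444 in neonatal testis. Summed signals of 7 proliferation genes were between 21709 and 24138 on the fetal and neonatal arrays and 12343 and 11168 in adult ovary and testis. The geometric mean of 9 hybridization controls was lowest in adult testis (745) and neonatal ovary (1031) and 1462 to 1675 on the other arrays. For Gapdh the probe set at the 3' end over that at the 5' end, which rises as RNA breaks down, read 2.36 in adult testis, against 3.12 in neonatal ovary and 1.32 to 1.45 on the others. The same ratio for Actb went the other way, at 1.81 in adult testis, the lowest of the 6, and 2.91 to 3.78 on the others. The part of germ cell content, RNA integrity or labelling in the lower signals of adult testis was not tested.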

How the data were processed

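RNA of 6 gonad samples was amplified to biotin-labelled cRNA and hybridized, per the labels' protocols. The deposited value of a probe set on an array is a linear intensity. The submitters' processing notes name GCOS version 1 without saying what it did. How probes were corrected, summarized and scaled is, likewise, not given in the sources used here. Signals were scaled to a common 2% trimmed mean (factors 0.913 to 1.26) and raised to a floor of 75.3, and log2 ratios were taken with Python 3.11.15, numpy 2.4.6 and pandas 2.3.3. Correlations used scipy 1.17.1 and figures matplotlib 3.10.9. Symbols came from the platform annotation: 34945 probe sets have 1 symbol, 932 several and 9211 none. Of a gene's single-symbol probe sets, the one brightest on average over the 6 arrays was used. A gene counted in a comparison if it was above the floor on at least 1 of its arrays, and a call was a ratio of 2-fold or more. With 1 array per group there was no test. Precision is limited by the array number. Genes were named as follows: the 6 largest ratios per comparison and direction past 2-fold, members at the floor, paralogs with parents, X-linked and stalk genes, the 6 brightest, the 6 with most discordant probe sets, a short fixed list (Rps6, Rps19, Rpl5, Rpl11, Rpl38) and the 3 largest of each gene list. Rpl41, Rps20, Rps24, Rps28, Rps29, Rpl35 and Rps25 were singled out after their values were seen. The members and gene lists were chosen with earlier results of these data known. The calculation was tested on simulated data. Alternatives varied the scaling, the floor, the probe sets and the limit.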

Additional observations from a re-analysis of the deposited data

Results flagged for a closer look

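Rpl39l moved in opposite directions with age in the 2 sexes. Its log2 ratio of adult to newborn was 2.21 in testis and -3.53 in ovary, from single arrays, so the difference was not tested. Groups of 1 array allowed no search for samples that stand apart.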

How the results depend on the processing

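No paired analysis was possible because each group has 1 array. Medians below are log2 ratios over the ribosomal protein genes, and a change is given where it exceeded the spread between probe sets of a member or moved a count by over 1.5 times. Of the values summarizing a comparison, counts and medians together, 190 were kept by these limits, 54 moved and 1, a median of 2-fold or more, changed sign. Only medians were judged by that spread. Counts were judged by the limit of 1.5 times, so a fall from 24 to 17 lower in adult testis was kept, as was 0 against 0. Smaller medians that changed sign by more than that spread are among the 54; the cause was not tested. Scaled to the hybridization controls, the median of adult over neonatal testis was 0.37 in place of -1.01, with 6 genes higher and 3 lower, and Rpl7l1 was at 0.037. Adult ovary over adult testis then had a median of -0.28 with 4 higher and 4 lower, where 15.5% and 38.7% of all genes were. Neonatal ovary over neonatal testis had 0.44 with 3 higher, where 15.9% of all genes were. Neonatal over fetal testis had -0.042 with 2 lower, where 7.53% of all genes were. The medians were 0.42 for neonatal over fetal ovary and -0.34 for adult over neonatal ovary. That scaling moved the share of all genes in adult over neonatal testis to 46.1% higher and 9.7% lower. With signals as deposited the medians were -0.76 for adult over neonatal testis, 0.10 for fetal and -0.22 for neonatal ovary over testis. Neonatal over fetal testis had 0.020 with 2 lower, where 6.93% of all genes were. Neonatal over fetal ovary had -0.28 with 1 higher and 2 lower, where 2.39% and 13.8% of all genes were. Adult over neonatal ovary had 0.16. Quantile normalization gave -0.76 for adult over neonatal testis, -0.0074 and -0.0088 for neonatal over fetal testis and ovary and 0.00 for adult over neonatal ovary. Scaling to the same median gave -0.19 for neonatal ovary over testis, 0.31 and 0.087 for neonatal over fetal testis and ovary and -0.13 for adult over neonatal ovary. With only probe sets designed for 1 transcript (suffix _at) fewer genes are left. Adult over neonatal testis then had a median of -1.21 with 10 lower, where 31% of all genes were, and adult ovary over testis 1.11. Neonatal over fetal testis had -0.057 with 4 lower, where 5.11% of all genes were. Neonatal over fetal ovary had 0.040 with 4 lower, where 3.91% of all genes were. Adult over neonatal ovary had -0.15 with 3 higher, where 8.53% of all genes were. A floor at the 75th percentile left 1 gene higher in neonatal over fetal ovary, where 2.72% of all genes were. A 4-fold limit left 4 genes lower in adult over neonatal testis, 4 higher in adult ovary over testis and 0 for fetal ovary under testis and for the changes from fetus to newborn. Using probe sets with several symbols as well, an alternative chosen after seeing the data, left 1 gene higher and 0 lower in neonatal over fetal ovary and 0 lower in neonatal over fetal testis. Of all genes, 4.99% were then higher and 3.42% lower in that ovary comparison, and 4.9% lower in that testis comparison. Among members of the top 1% on fetal testis, also chosen after seeing the data, 0 were lower in the comparisons of fetal gonads, of adult gonads, from fetus to newborn or of ovary with age, and 0 were higher in adult testis or neonatal ovary. Low signal over background limits Rps6, Rpl12, Rpl14, Rpl39, Rps25 and Rps27, and Rpl3l and Rps16 gave no value.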
